A study of Mus musculus with 8 samples.

Results

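Bone morphogenetic proteins (BMPs) signal through serine/threonine kinase receptors that phosphorylate Smad transcription factors, and the pathway turns on some of its own inhibitors. Smad6 and Smad7 are inhibitory Smads that act on the receptors and on receptor-activated Smads, Bambi is a membrane pseudoreceptor that lacks a kinase domain, Skil (SnoN) is a corepressor that binds Smads in the nucleus, and Tgif1 is a homeodomain corepressor of Smad-driven transcription. In the intestine BMP ligands are most active toward the villus tip, and BMP antagonists act around the crypt base.

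These 5 genes were taken as a named set, by symbol, from the 16115 genes used here, and all 5 were found. They were measured in single enteroendocrine cells, the hormone-producing cells of the gut epithelium, sorted from C57BL/6 mouse intestinal organoids by a hormone reporter. Cells came from 3 reporter lines, called Tac1-Cre, Gip-Cre and Gcg-Venus in the labels, and were collected after 24 h of BMP4, after 4 days of BMP4, or untreated. On 5 plates, 2 of the Gcg line, 1 of the Gip line and 2 of the Tac1 line, all 3 conditions share the plate. On each of these, untreated cells took columns 1 to 6, 24 h columns 7 to 12 and 4 days columns 13 to 24. Condition therefore cannot be told apart from plate column and its well barcodes. A further 3 Tac1 plates hold a single condition, 1 with 24 h and 2 with 4 days of BMP4, and have no untreated cells beside them. The labels name neither the dose of BMP4 nor the mice or separate cultures behind a plate, so the p-values rest on differences among plates that may be technical.

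Each value is a sum of deposited transcript counts over the cells of 1 plate and condition, scaled to CPM, the usual rate that sets every sum to the same total. Of 3072 wells, 1006 held at least 2000 transcripts and were kept as cells, 883 of them on the 5 mixed plates. Sums of fewer than 10 cells were not used, which left out the 24 h cells of Tac1 plate 2 (9 cells) and gave 14 sums of 104241 to 1251615 transcripts. A gene with 3 transcripts in the smallest sum stands at 28.8 CPM, as Skil did in untreated cells of Tac1 plate 2, so zeros there are weak evidence. Intervals on CPM are 95% Poisson intervals and cover counting error only. The endocrine markers Chga, Chgb, Scg2, Scg3, Scg5, Cpe, Pcsk1 and Neurod1 were listed on every plate, and 1 of the 8 was at 0 in 1 sum, that of Tac1 plate 2 at 4 days. Their summed level was 5510 to 12200 CPM in the sums of the Gcg and Gip plates and 39700 to 84300 CPM in those of the mixed Tac1 plates. On Tac1 plates 1 and 2 it was 83000 and 84300 CPM in untreated cells and 39700 and 45400 CPM after 4 days. Tac1 plate 1 had 80800 CPM at 24 h. On both Gcg plates the 12 enterocyte markers summed to more than the endocrine ones, 11700 to 36000 CPM. So they did in untreated cells of the Gip plate (10500 against 9820 CPM). The 8 goblet markers stood at 12700, 4710 and 24500 CPM in untreated cells, at 24 h and at 4 days of Gcg plate 1. On Gcg plate 2 they stood at 2710, 1620 and 15900 CPM, and in sums of the other mixed plates at 666 to 4400 CPM. The 384 well barcodes are the same on every plate, and no 2 wells of at least 100 transcripts were identical.

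The promoter of Smad6 is shown first, because its start site carries a palindrome of the letters that Smads bind. Windows of Smad6 and Tgif1 were searched, and Skil, Smad7 and Bambi were not. The gene lies on the minus strand of chromosome 9, from 63953076 to 64022059 (mm10, GENCODE annotation). The RefSeq window chr9:64022056-64022309 (GRCm38.p6, minus strand) is printed 5′ to 3′. It ends 4 bases past the annotated start, and the capitals mark the palindrome.
Smad6: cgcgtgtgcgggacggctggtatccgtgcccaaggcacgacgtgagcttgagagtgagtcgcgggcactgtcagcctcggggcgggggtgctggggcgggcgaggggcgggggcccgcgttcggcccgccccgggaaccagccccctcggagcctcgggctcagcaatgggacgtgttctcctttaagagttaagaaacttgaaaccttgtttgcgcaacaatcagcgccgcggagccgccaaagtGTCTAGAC
The 8 letters GTCTAGAC join 2 copies of GTCT, the Smad-binding core, on opposite strands, and they lie across the start itself, partly outside the 250 bases before it. Searched on both strands, GTCTAGAC was in 0.167% of 32851 promoter windows of 250 upstream bases. Windows of 300 bases that reach past the start, which take in the Smad6 match and were searched after it was seen, held it in 0.213% of cases. GGCGCC, a GC-rich element of BMP-responsive genes, was absent from the Smad6 window and present in 9.59% of windows. Of the 5 RefSeq windows of Tgif1, none held GTCTAGAC or GGCGCC. These matches describe letters in a window and not binding.

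After 4 days of BMP4 the inhibitory Smads and Skil rose over the 5 plates, while Bambi and Tgif1 did not pass the test. Smad6 was close to undetected in untreated cells and was found at 29.0 to 66.6 CPM on every plate after 4 days. Smad7 did the same on 4 of 5 plates, and Skil was present at the outset and rose less. Of the 5 members 3 passed the test (edgeR quasi-likelihood test with plate as a block, adjusted p under 0.05 over 8308 genes), all higher, against 2.41% of all genes tested that passed as higher and 3.33% that passed in either direction. The median log2 change was 1.82 over the 5 members and 0.0 over all genes tested. The members were chosen with earlier results of these data known. The shares and medians set beside all genes therefore describe the set and do not test it.

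**Figure D1:**
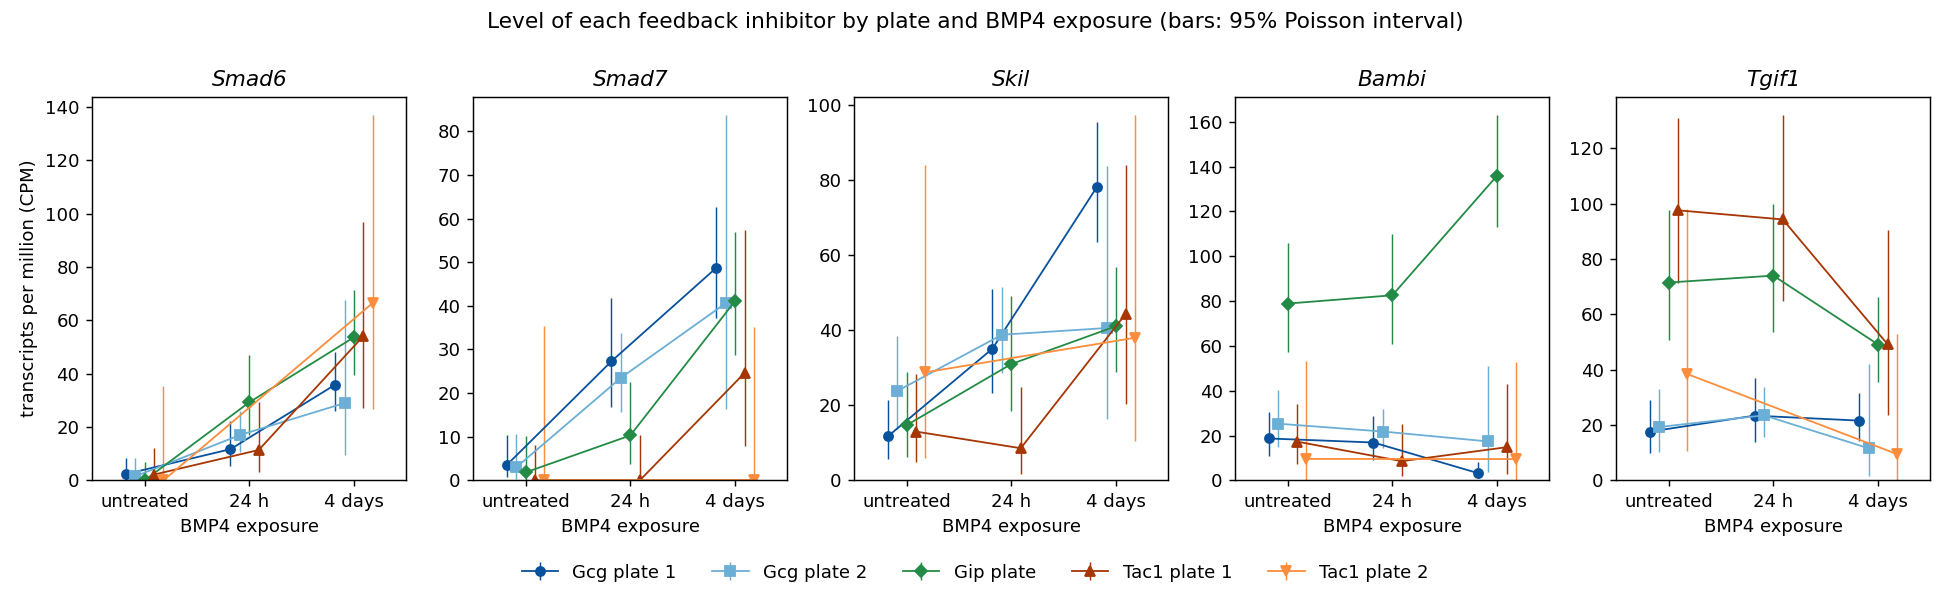
Level of the 5 members in CPM (vertical axis, linear from 0) in untreated cells, after 24 h and after 4 days of BMP4 (horizontal axis), 1 line per plate, with bars for the 95% Poisson interval; Tac1 plate 2 has no 24 h point. Smad6 at 4 days, 29.0 to 66.6 CPM, lies above every untreated value, while Bambi stands apart on the Gip plate.

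Smad6 had 2.34 CPM in untreated cells, 11.7 CPM at 24 h and 35.9 CPM at 4 days on Gcg plate 1. On Gcg plate 2 its level was 1.49, 17.0 and 29.0 CPM in the same order. The Gip plate gave 0, 29.3 and 53.7 CPM, and Tac1 plate 1 gave 2.17, 11.4 and 54.2 CPM. Tac1 plate 2 had 66.6 CPM after 4 days, against 0 CPM in untreated cells. Each plate with a 24 h sum was higher at 24 h than untreated, and higher again at 4 days, and neither BMP4 group overlapped the untreated one. Levels that do not overlap in this direction were found for 0.722% of genes tested at 4 days and 0.469% at 24 h. In transcripts, 115 were counted in 311 cells at 4 days, 51 in 277 cells at 24 h and 4 in 286 untreated cells.

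Over the plates Smad6 averaged 47.9 ± 15.2 CPM after 4 days and 1.2 ± 1.14 CPM in untreated cells (SD, n = 5 plates each), a fitted log2 change of 4.80 ± 0.53 (SE; edgeR adjusted p = 1.5e-04). At 24 h it averaged 17.4 ± 8.37 CPM (SD, n = 4 plates) and passed at a log2 change of 3.38 ± 0.58 (edgeR adjusted p = 0.040), beside 0.0963% of genes tested. Smad6 was the only member called at 24 h, and leaving out any one plate ended that call, with an adjusted p of 0.59 once the Gip plate was dropped, of 0.062 and 0.15 with Gcg plate 1 or 2 dropped, and of 0.14 and 0.087 with Tac1 plate 1 or 2 dropped. The 4 day call held without each plate. On single plates the ratio of 4 days to untreated was 15.3 on Gcg plate 1 (exact interval 4.01 to 131), 19.5 on Gcg plate 2 (2.19 to 924) and 25 on Tac1 plate 1 (3.63 to 1080). Where untreated cells had no transcript, the 4 day level was set against 3 transcripts in the untreated sum. By this measure Smad6 was 9.76-fold higher on the Gip plate and 2.31-fold higher on Tac1 plate 2. These folds leave out the counting error of the 4 day sum and are not lower limits. On Tac1 plate 2, 4 of the 7 transcripts at 4 days came from 1 cell. The 3 Tac1 plates with a single condition had no untreated value to set their levels against. At 24 h Smad6 had 10.4 CPM (1.26 to 37.5), from 2 transcripts in 1 cell. At 4 days it had 61.1 (22.4 to 133) and 114 CPM (66.6 to 183), from 6 and 17 transcripts. These levels cover 48, 30 and 45 kept cells. Another 177, 263 and 225 wells of at least 100 transcripts were too shallow to be kept as cells. They gave 38.1 (10.4 to 97.6), 145 (98.7 to 206) and 103 CPM (60.9 to 162), from 4, 31 and 18 transcripts. The mixed plates had such wells too, given here for Gcg plates 1 and 2, the Gip plate and Tac1 plates 1 and 2. At 4 days there were 87, 136, 47, 113 and 37 of them, against 28, 17, 26, 23 and 40 untreated. Those at 4 days held 0, 0, 0, 1 and 1 Smad6 transcripts (upper limits 67.1 to 260 CPM).

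Smad7, the second inhibitory Smad, also binds receptors and brings ubiquitin ligases to them. Its level in untreated cells, at 24 h and at 4 days was 3.51, 27.3 and 48.7 CPM on Gcg plate 1, and 2.97, 23.5 and 40.6 CPM on Gcg plate 2. The Gip plate had 1.83, 10.3 and 41.1 CPM. On these 3 plates the order of the conditions was that of Smad6. The Tac1 plates differed from this order. Tac1 plate 1 had no Smad7 transcript in untreated cells or at 24 h and 24.6 CPM at 4 days. That was 3.78-fold above the level of 3 transcripts in the untreated sum, with the counting error at 4 days left out. Tac1 plate 2 had 0 CPM both after 4 days and in untreated cells, where upper limits were 35.1 and 35.4 CPM. On the Tac1 plates with a single condition Smad7 was not listed at 24 h, which is taken as 0 CPM. At 4 days it stood there at 71.3 (28.7 to 147) and 47.1 CPM (18.9 to 97.0). The wells too shallow to be kept on these 4 day plates gave 98.4 (60.9 to 150) and 45.7 CPM (19.7 to 90.0). On the mixed plates, in the order given for Smad6, such wells at 4 days held 1, 0, 0, 0 and 0 Smad7 transcripts.

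Smad7 averaged 31.0 ± 19.4 CPM after 4 days and 1.66 ± 1.63 CPM in untreated cells (SD, n = 5 plates each). Its log2 change was 4.25 ± 0.59 (SE; edgeR adjusted p = 0.0020), and the groups overlapped only through the 0 of Tac1 plate 2. At 24 h it averaged 15.3 ± 12.5 CPM (SD, n = 4 plates) and missed the threshold at 2.73 ± 0.62 (edgeR adjusted p = 0.32; 95% interval 1.41 to 4.06). With no filter on low counts it passed at 24 h (adjusted p = 0.0037).

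Skil differed from the inhibitory Smads in its level before treatment. Untreated cells, 24 h and 4 days gave 11.7, 35.1 and 78.3 CPM on Gcg plate 1, and 23.8, 38.8 and 40.6 CPM on Gcg plate 2. Cells of the Gip plate gave 14.7, 31.0 and 41.1 CPM, and Tac1 plate 1 gave 13.0, 8.57 and 44.3 CPM. After 4 days Tac1 plate 2 had 38.0 CPM, against 28.8 CPM in untreated cells. All 4 day values lay above all untreated values, as they did for 0.722% of genes tested. On Gcg plate 2 and Tac1 plate 2, however, the counting intervals of the ratio, 0.595 to 4.39 and 0.224 to 9.03, include 1. Tac1 plate 1 was the only plate below its untreated value at 24 h, by 3 transcripts against 6. Skil averaged 48.5 ± 16.8 CPM after 4 days and 18.4 ± 7.5 CPM in untreated cells (SD, n = 5 plates each), a log2 change of 1.82 ± 0.36 (SE; edgeR adjusted p = 0.010). The call ended without Gcg plate 1 (log2 change 1.38, adjusted p = 0.097), without the Gip plate (1.91, adjusted p = 0.062) and when cells with markers of another cell type were left out (1.48, adjusted p = 0.059). At 24 h Skil stood at 0.85 ± 0.37 (edgeR adjusted p = 1). The single-condition Tac1 plate at 24 h gave 25.9 CPM (8.42 to 60.6), and its wells too shallow to be kept gave 0 CPM (upper limit 35.1). Those at 4 days gave 81.5 (35.2 to 161) and 87.5 CPM (46.6 to 150). Their wells too shallow to be kept gave 173 (122 to 239) and 171 CPM (116 to 244). On the mixed plates, in the order given for Smad6, such wells at 4 days held 5, 1, 3, 2 and 0 Skil transcripts.

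Between 24 h and 4 days none of the 5 members passed by edgeR, beside 0.397% of genes tested. At an unadjusted p under 0.05 there were 3 of the 5, beside 9.2% of genes tested. The log2 change of 4 days over 24 h was 1.43 ± 0.38 for Smad6 (adjusted p = 0.13), 1.52 ± 0.44 for Smad7 (adjusted p = 0.18) and 0.97 ± 0.34 for Skil (adjusted p = 0.31). By DESeq2, 1 member, Smad6, passed (adjusted p = 0.046).

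**Figure D2:**
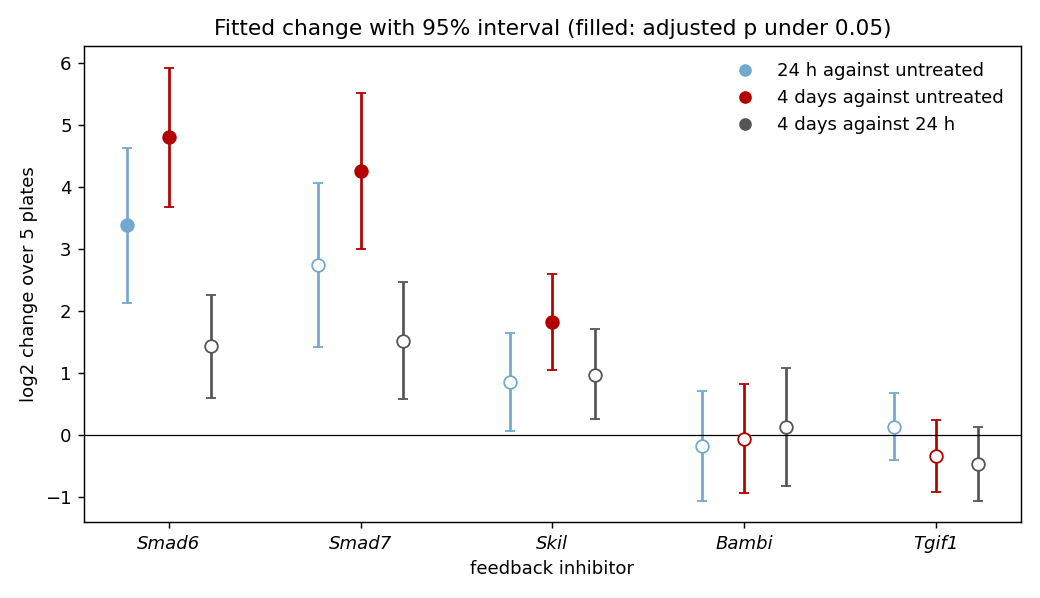
Fitted log2 change of each member over the 5 mixed plates (vertical axis) with its 95% interval, for 24 h against untreated, 4 days against untreated and 4 days against 24 h; filled points passed at an adjusted p under 0.05. Smad6 at 24 h and Smad6, Smad7 and Skil at 4 days are filled, and the intervals of Bambi and Tgif1 cross 0 in all 3 comparisons.

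Bambi took no common direction. It has a pseudogene copy in the annotation, as has Tgif1, so the counts of both could be split with a copy. Its level in untreated cells, at 24 h and at 4 days was 18.7, 16.9 and 3.2 CPM on Gcg plate 1, and 25.3, 21.8 and 17.4 CPM on Gcg plate 2. The Gip plate stood well above the others, at 78.9, 82.6 and 136 CPM. Tac1 plate 1 had 17.3, 8.57 and 14.8 CPM, and Tac1 plate 2 had 9.51 CPM after 4 days, against 9.59 CPM untreated, with 1 transcript in each. The ratio of 4 days to untreated was 1.72 on the Gip plate (exact interval 1.21 to 2.5) and 0.171 on Gcg plate 1 (0.0415 to 0.529), and on the other plates the interval included 1. Over all plates Bambi averaged 36.2 ± 56.1 CPM after 4 days and 30.0 ± 27.9 CPM in untreated cells (SD, n = 5 plates each). The log2 change was -0.06 (95% interval -0.94 to 0.82; edgeR adjusted p = 0.99) at 4 days and -0.18 (-1.06 to 0.70; adjusted p = 1) at 24 h. The sign at 4 days was not stable, since without Gcg plate 1 the value was 0.53.

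Tgif1 was lower after 4 days on 4 of 5 plates, without passing the test. Untreated cells, 24 h and 4 days gave 17.6, 23.4 and 21.6 CPM on Gcg plate 1, and 19.3, 23.5 and 11.6 CPM on Gcg plate 2. The Gip plate gave 71.5, 74 and 49.1 CPM, and Tac1 plate 1 gave 97.6, 94.3 and 49.2 CPM. Tac1 plate 2 had 9.51 CPM after 4 days, against 38.4 CPM in untreated cells. None of the plates had a ratio whose interval left out 1. On the single-condition Tac1 plate at 24 h Tgif1 was at 15.6 CPM (3.21 to 45.5), and at 0 CPM (upper limit 35.1) in wells too shallow to be kept. On those at 4 days it was at 20.4 (2.47 to 73.6) and 60.6 CPM (27.7 to 115). Their wells too shallow to be kept gave 60.9 (32.4 to 104) and 79.9 CPM (43.7 to 134). On the mixed plates, in the order given for Smad6, such wells at 4 days held 1, 1, 0, 5 and 0 Tgif1 transcripts. Over the 5 mixed plates Tgif1 averaged 28.2 ± 19.7 CPM after 4 days and 48.9 ± 34.8 CPM in untreated cells (SD, n = 5 plates each). The log2 change was -0.34 (95% interval -0.92 to 0.24; edgeR adjusted p = 0.63).

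Within lines the changes of Smad6, Smad7 and Skil at 4 days had the same sign in the Gcg and the Tac1 line. In the Tac1 line Smad7 and Skil did not pass, at log2 changes of 6.67 ± 1.85 (edgeR adjusted p = 0.14) and 1.5 ± 0.74 (0.4). That Smad7 value rests on 5 transcripts of Tac1 plate 1, and the interval of Skil was -0.16 to 3.16. In the Gcg line no member passed by edgeR, beside 0.277% of genes tested. At an unadjusted p under 0.05 there were 4 of the 5, beside 6.92% of genes tested. There the log2 change was 4.13 ± 0.72 for Smad6 (adjusted p = 0.073), 3.85 ± 0.65 for Smad7 (0.077) and 2.07 ± 0.53 for Skil (0.29). The other of the 4, Bambi, was lower after 4 days, at -1.6 ± 0.62 (95% interval -3.0 to -0.21, edgeR adjusted p = 0.65). Without the plate block, Smad6 and Smad7 passed in the Gcg line (adjusted p = 0.012 and 0.024), as they did by DESeq2. In the Tac1 line 1 member, Smad6, passed at 5.08 ± 0.97 (edgeR adjusted p = 0.033), beside 2.01% of genes tested, and the call ended without Tac1 plate 1 (adjusted p = 0.26) or Tac1 plate 2 (0.25). The difference of the 4 day response between the Gcg and the Tac1 line, tested directly, passed for no member, with an interval of -4.58 to 2.68 for Smad6 on the log2 scale, and for 0.0% of genes tested. None of the members had an unadjusted p under 0.05 in it, beside 9.06% of genes tested. At 24 h no member passed in the Gcg line (0.0722% of genes tested did) or in the Tac1 line (0.0241%), where only 1 plate had a 24 h sum. The cells of the mixed Tac1 plates also differed at 4 days, which was not tested. Their endocrine markers summed to 39700 and 45400 CPM, against 83000 and 84300 CPM untreated. Sorted by hormone as below, Tac1 cells numbered 31 untreated and fewer than 10 at 4 days. At 4 days 14 cells of 1 plate had no sorting hormone and held 5 Smad6 transcripts.

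Untreated cells of the lines were also compared. By edgeR, Tgif1 was lower in the Gcg line, at 17.6 and 19.3 CPM, than in the Tac1 line, at 97.6 and 38.4 CPM, with a log2 difference of -2.11 ± 0.49 (edgeR adjusted p = 0.0028), beside 16.4% of genes tested. This rested on Tac1 plate 1, without which the difference was -1.01 (adjusted p = 0.43), and DESeq2 did not call it (adjusted p = 0.12). The Tac1 files were written in another form than the Gcg and Gip files, so line and file form cannot be told apart here. Bambi did not pass between these lines (0.44 ± 0.64, adjusted p = 0.72). On the Gip plate, whose file has the same form as the Gcg files, untreated Bambi stood at 78.9 CPM, against 18.7 and 25.3 CPM on the Gcg plates, and untreated Tgif1 at 71.5 CPM, against 17.6 and 19.3 CPM. With 1 Gip plate the line has no spread of its own, line and plate cannot be told apart, and these levels are given as a description. A fit added after the values were seen, which assumed that the lone plate varies like the other lines, gave edgeR adjusted p-values of 0.029 for Bambi and 0.025 for Tgif1, beside 5.18% of genes tested. Neither held by DESeq2 (0.92 and 0.59), without Gcg plate 1 (0.40 and 0.18) or without Gcg plate 2 (0.12 and 0.11), so no difference between the lines is drawn from it. Under the same assumption the 4 day response of Bambi in the Gip minus the Gcg line was 2.51 ± 0.83 on the log2 scale, which did not pass (edgeR adjusted p = 1).

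Cells were also sorted by their most abundant hormone, with at least 5 transcripts of it, since a line holds several cell types. Sums over cells of a type mix plates, so the values are given with counting intervals and no test, and a change in the mix of cells cannot be told apart from a change per cell in the plate sums above. In the Gcg line, Smad6 had 48.7 CPM (33.3 to 68.7) in Nts cells and 25 CPM (14.0 to 41.3) in Gcg cells after 4 days. At 24 h it was at 39.6 CPM (22.1 to 65.3) in Nts cells and 3.42 CPM (0.705 to 9.99) in Gcg cells, and those intervals do not overlap. They rest on 15 transcripts in 35 Nts cells and 3 in 57 Gcg cells. Cck and Gip cells of the line lay between, at 19.5 CPM (8.9 to 36.9) and 12.4 CPM (2.56 to 36.2). Nts and Gcg cells were thus the highest and the lowest of the groups of at least 10 cells. Tgif1 at 24 h ran the other way, at 2.64 CPM (0.0668 to 14.7) in Nts cells and 28.5 CPM (18.4 to 42.0) in Gcg cells. Smad7 at 24 h was at 29.0 CPM (14.5 to 51.9) in Nts cells and 27.3 CPM (17.5 to 40.7) in Gcg cells, and for Skil and Bambi too the intervals of these cells overlapped. In Gip cells of the Gip plate Smad6 was at 39.6 CPM at 24 h and 58.7 CPM at 4 days, and untreated Gip cells held no transcript of it.

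Bambi at 4 days was at 157 CPM (128 to 191) in Gip cells and 69.0 CPM (39.5 to 112) in Sst cells of the Gip plate. Untreated Gip cells had 77.5 CPM (52.7 to 110). In Sst cells of the Tac1 line it was at 10.4 CPM (1.26 to 37.6) at 4 days, below the interval of Sst cells on the Gip plate. Tgif1 in untreated cells was at 90.0 CPM (63.0 to 125) in Gip cells, 20.7 CPM (4.26 to 60.4) in Sst cells of the Gip plate and 80.7 CPM (49.3 to 125) in Sst cells of the Tac1 line. Untreated Tac1 cells of the Tac1 line had 106 CPM of Tgif1 (69.5 to 154). Gcg cells of the Gcg line were lower, at 15.8 CPM (9.05 to 25.7). Nts cells of that line had 6.97 CPM (0.845 to 25.2). Its Cck cells, however, had 79.3 CPM (34.3 to 156), from 8 transcripts in 11 cells. In these comparisons too, the Tac1 line cannot be told apart from its file form.

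**Figure D3:**
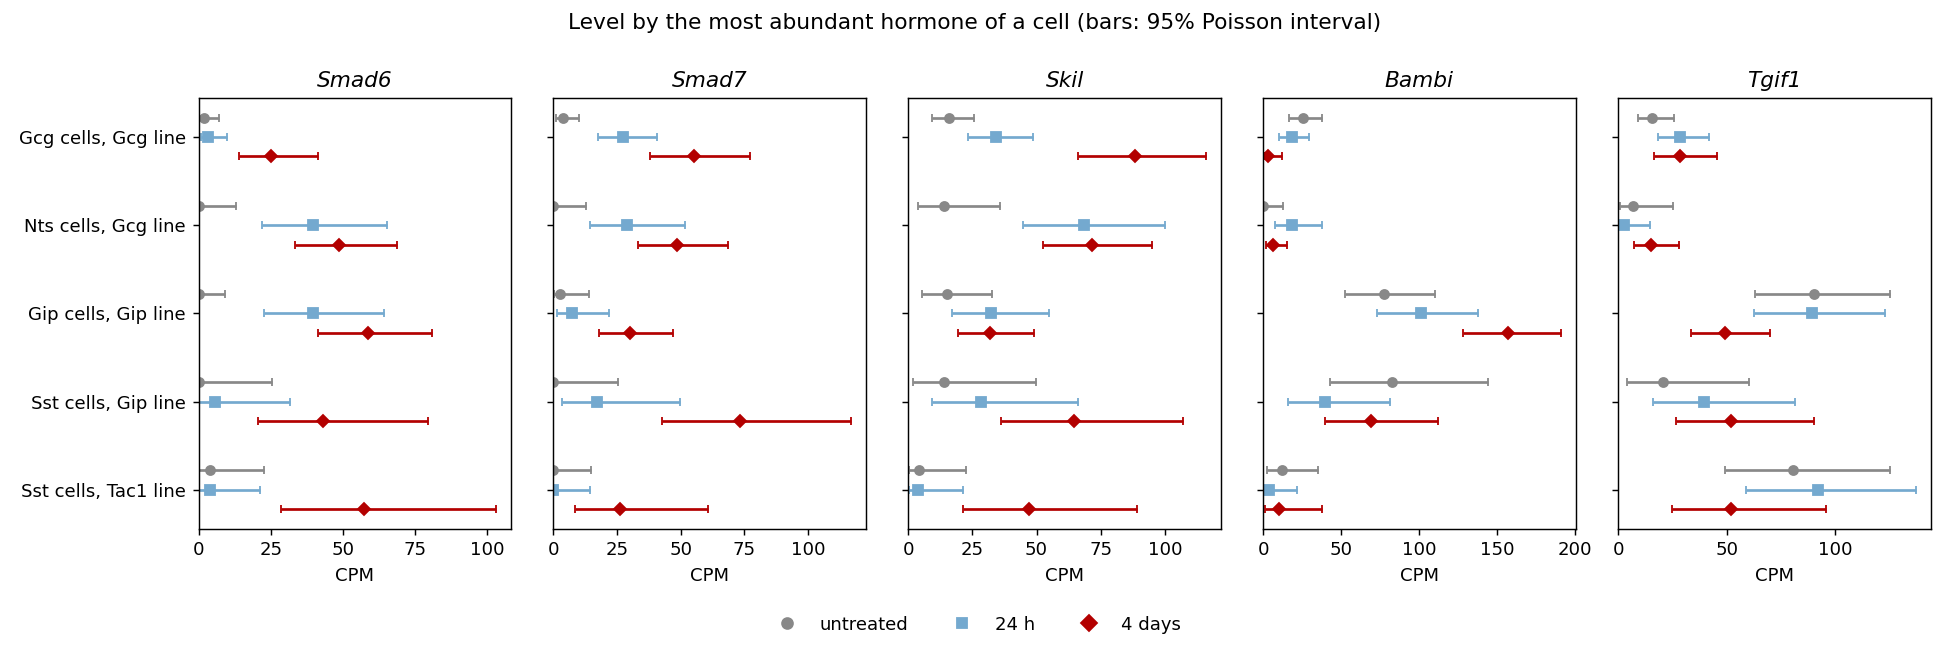
Level of each member in CPM (horizontal axis, linear from 0) in cells grouped by line and most abundant hormone (rows), in untreated cells, at 24 h and at 4 days of BMP4, with 95% Poisson intervals. Drawn are Gcg and Nts cells of the Gcg line, Gip and Sst cells of the Gip line and Sst cells of the Tac1 line, where at least 10 cells were present. Other groups of that size, among them Cck and Gip cells of the Gcg line and Tac1 cells of the Tac1 line, are not drawn. Smad6 at 24 h is at 39.6 CPM in Nts cells and 3.42 CPM in Gcg cells of the Gcg line, and Bambi is highest in Gip cells at 4 days, at 157 CPM.

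The members were sparse in single cells. With every cell thinned to 2000 transcripts, a mean of 6.89% of cells per plate held Smad6 after 4 days, against 0.267% of untreated cells, and all 5 plates were higher. Unthinned, the shares were 22.7% and 1.19%. For Skil the thinned shares were 10.6% after 4 days and 1.17% untreated, higher on 5 plates. For Smad7 they were 4.73% and 0.312%, higher on 4. Tgif1 was found in 6.15% of thinned cells after 4 days and 8.50% of untreated ones, higher on 1 plate. Unthinned, the shares after 4 days and untreated were 23.6% and 9.78% for Skil and 15.6% and 1.52% for Smad7. For Tgif1 they were 11.9% and 19.1%. The exact sign-flip permutation test over plates, two-sided, gave p = 0.063 for Smad6 and Skil, the smallest that 5 plates allow, so this test cannot pass at 0.05. Of 307 thinned cells at 4 days, 27 held Smad6, 15 held Smad7 and 29 held Skil, 1 held both Smad6 and Smad7, and 5 held both Smad7 and Skil.

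Cells that carried a transcript of an Id gene, direct BMP targets, were 71.0% of thinned cells at 4 days, 59.5% at 24 h and 10.8% untreated. At 24 h all 10 cells with Smad6 also carried an Id transcript, among 169 cells that did and 115 that did not. After 4 days Smad6 was in 8.72% of cells with an Id transcript and 8.99% of cells without one. Smad7 at 4 days was in 5.50% and 3.37%, and Bambi in 12.8% and 6.74%. These shares pool plates and were not tested.

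The share of cells rich in a nuclear RNA also differed between conditions, which was not tested. Cells with at least 5% of their transcripts from Kcnq1ot1, an antisense RNA that stays in the nucleus, were more frequent after 4 days than untreated on each mixed plate: 25.3% and 20.3% on Gcg plate 1, 25% and 6.67% on Gcg plate 2, 37.8% and 1.59% over all cells of the Gip plate, 31.7% and 2.94% on Tac1 plate 1, and 43.8% and 12.5% on Tac1 plate 2. At 24 h the share was 15.7% on Gcg plate 1, below its untreated share, 7.23% on Gcg plate 2, 8.57% on the Gip plate and 5.56% on Tac1 plate 1. The 5% limit was set after the data were seen. At 4 days Smad6 was at 16.8 CPM (7.25 to 33.1) in Kcnq1ot1-rich cells and 50.2 CPM (41.1 to 60.7) in the other cells. Skil was at 10.5 CPM (3.41 to 24.5) and 69.9 CPM (59.1 to 82.1). In counts pooled over plates, with no test, all 5 members were lower in the Kcnq1ot1-rich cells at 4 days, and their median depth was lower too, at 3600 against 7550 transcripts. Without these cells the 3 calls at 4 days held, and Smad6 at 24 h did not (log2 change 3.27, adjusted p = 0.077).

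**Figure D4:**
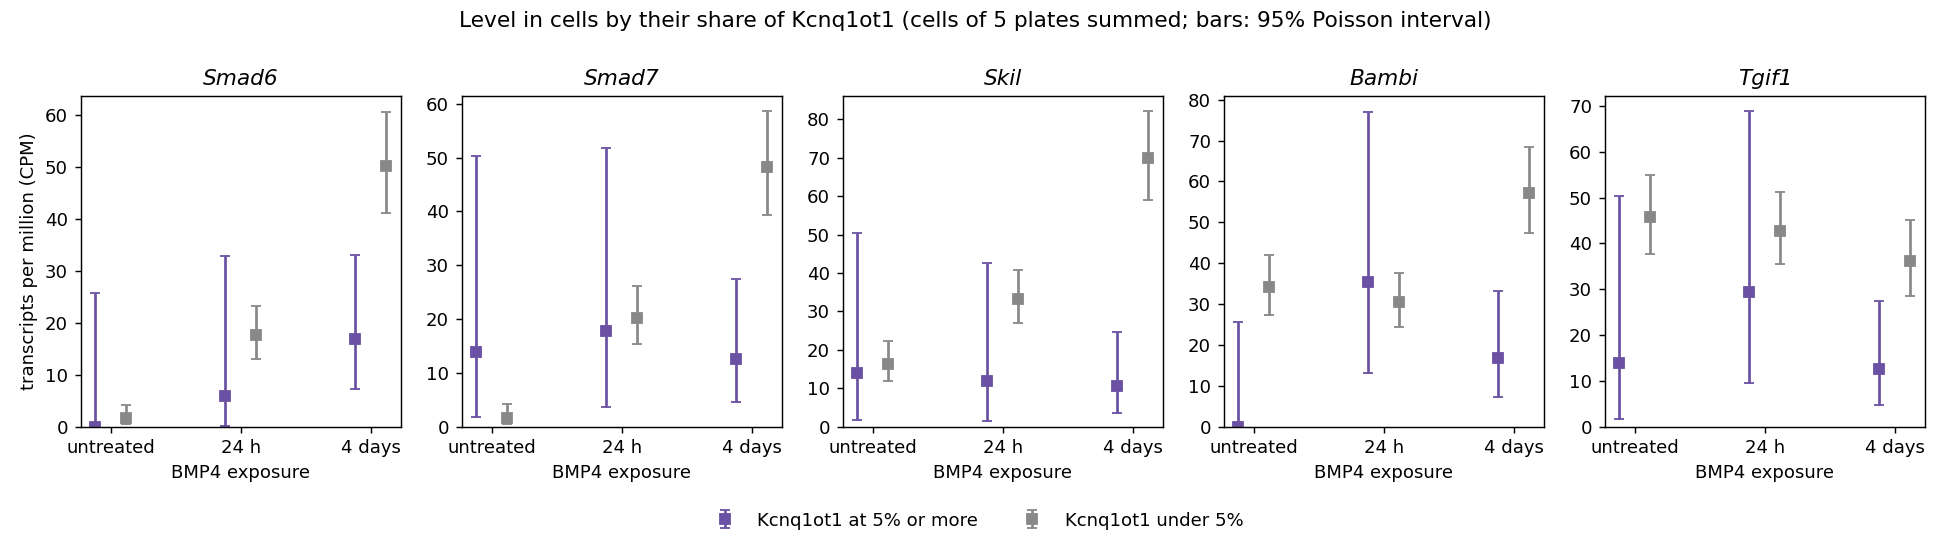
Level of each member in CPM (vertical axis, linear from 0) in cells with at least 5% and under 5% of transcripts from Kcnq1ot1, by BMP4 exposure (horizontal axis), with 95% Poisson intervals over the cells of the 5 mixed plates. At 4 days every member is lower in the Kcnq1ot1-rich cells, with Skil at 10.5 CPM and 69.9 CPM in the others.

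Few other genes of the BMP inhibitor system passed the test. Of 24 extracellular and membrane antagonists 4 were abundant enough to test, and none passed at 4 days by edgeR, where 3.33% of all genes tested did. None had an unadjusted p under 0.05, beside 15.2% of all genes tested. Of 11 tested corepressors and nuclear inhibitors 1 rose at 4 days, beside the same 3.33%. This was Hivep2, a relative of Drosophila schnurri, which acts with Smads in the BMP pathway. It gained 1.49 ± 0.27 on the log2 scale (adjusted p = 0.0068). Ski, the closest relative of Skil, was at -0.41 ± 0.21 (adjusted p = 0.39). None of 20 tested ubiquitin ligases, phosphatases and adaptors passed, nor did any of 12 receptors and signalling Smads. At an unadjusted p under 0.05 there were 2 of the 20 and 2 of the 12, beside the 15.2% of all genes. Of 8 tested BMP targets outside the members 4 rose at both times, Id1, Id2, Id3 and Tbx3, beside 3.33% of all genes called at 4 days and 0.0963% at 24 h. None of 3 tested TGF-beta targets passed. Median log2 changes were 0.08 for the antagonists, -0.14 for the corepressors, 0.01 for the ligases and phosphatases, 0.08 for the receptors and Smads, and 2.10 for the BMP targets, against 0.0 over all genes. The lists too were chosen with earlier results of these data known, so these shares and medians are a description and no test.

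Over the 14 sums, after the plate means of log2 CPM were taken out, the genes most like Smad6 were Tbx3, a T-box transcription factor (r = 0.973), Ucp2, a mitochondrial carrier (0.961), and Hivep2 (0.959), among 7861 named genes. The closest to Smad7 were Fam101a (0.944), Lgals2, a galectin (0.936), and Skil (0.914). Those closest to Skil were Rorb (0.923), Litaf (0.918) and Dgka (0.917). For Bambi they were Smarcal1 (0.868), Sdad1 (0.852) and Ghrl, which encodes ghrelin (0.840), and for Tgif1 Vps54 (0.953), Pcnxl3 (0.95) and Kpna1 (0.947). Among the members, Smad7 and Skil ran together most closely, followed by Smad6 with Skil (0.805) and Smad6 with Smad7 (0.779), while Smad6 and Tgif1 ran opposite (-0.636). These correlations describe sums that share plates, depths and 3 conditions.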

How the data were processed

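The members and gene lists were chosen with earlier results of these data known. Single cells were sorted into 384-well plates and processed by SORT-seq, which tags transcripts with molecular identifiers, per the labels' protocols. The submitters' processing notes name BWA 0.6.2-r126 and the mm10 build. No counting tool, annotation or strand setting is given in the sources used here. The deposited values are expected counts, in which, from the values, the authors allowed for several molecules sharing an identifier: undoing that with 4096 identifiers gave whole numbers, within 0.01, for 100.0% of values on each plate. Each file lists detected genes only, so an unlisted gene was taken as 0. Genes listed in at least 1 file of each form were used. Genes outside this set made up 1.34 to 2.05% of a plate's transcripts. Spike-ins and mitochondrial genes were left out.

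Cells with at least 2000 transcripts were summed per plate and condition, in sums of at least 10 cells, and rounded. Tests used edgeR 4.0.16 in R 4.3.3 (TMM, filterByExpr, quasi-likelihood), with plate as a block and Benjamini-Hochberg adjustment over all 8308 genes (9168, with no block, between untreated lines). DESeq2 1.42.0 was an alternative, with others on normalization, filters, depth, cells and plates. Condition blocks share a plate by the labels, and sums of 1 plate deviated together, at r of 0.365 to 0.731 over 13 pairs. Wells were single sorts, and no doublet caller was run. Only the pooled fit of 4 days against untreated was run on simulated counts. These had no plate effect, unlike the real sums, so the run does not test the block or the other fits. Named genes were the members, the 3 genes most correlated with each, and every listed pathway gene that passed.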

Additional observations from a re-analysis of the deposited data

Results flagged for a closer look

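Values that stood apart were looked for in 15 groups of 4 or 5 plates, 1 for each member and condition, and chance flags about 1 group in 20. Bambi on the Gip plate stood apart after 4 days at 136 CPM, with the next plate at 17.4 CPM, and in untreated cells at 78.9 CPM, with the next at 25.3 CPM. Skil after 4 days stood apart on Gcg plate 1 at 78.3 CPM, with the next plate at 44.3 CPM.

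Lines that moved in opposite directions were also picked out, from the change in CPM on each plate. After 4 days Bambi was above its untreated level on the Gip plate and below it on both Gcg and both Tac1 plates, with 1 transcript in each condition on Tac1 plate 2. The mean change differed by -68.8 CPM for the Gcg minus the Gip line and by 58.4 CPM for the Gip minus the Tac1 line. The Gip against Gcg difference was tested and had an edgeR adjusted p of 1, and the Gip against Tac1 difference was not tested. At 24 h the differences in mean change were 23.6 CPM (Gcg minus Tac1) and 20.7 CPM (Gip minus Tac1) for Skil, -6.35 CPM (Gcg minus Gip) and 12.4 CPM (Gip minus Tac1) for Bambi, and 8.3 CPM (Gcg minus Tac1) and 5.8 CPM (Gip minus Tac1) for Tgif1. Each of these rests on 1 Tac1 plate or 1 Gip plate, and none of the 24 h differences was tested.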

How the results depend on the processing

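At 4 days the counts of members called over all lines were 2 or 3 under 18 alternatives, and Smad6 and Smad7 passed in each of them, at adjusted p-values up to 0.0041 and 0.034. Skil lost its call in 3. The cause of the changes below was not tested. Every plate held its conditions side by side, so plate was the block, and without the replicate block 3 members passed at 4 days and 1 at 24 h, as with it. The counts of all genes called ran from 79 (without Kcnq1ot1-rich cells) to 653 (no filter on low counts) at 4 days and from 6 to 46 at 24 h, against 277 and 8. After thinning to 2000 transcripts no member passed the filter, so that alternative gave no value, and Smad7 at 24 h in the Tac1 line, at 0 in both conditions, had no fold.

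At 24 h, 0 members passed with sums of at least 5 or at least 20 cells, cells of at least 5000 transcripts, cells with endocrine markers, without Kcnq1ot1-rich cells (an alternative chosen after seeing the data), or without any one plate (0 to 0), and 2 passed with no filter. Between 24 h and 4 days, 1 passed by DESeq2, 2 with no filter and 1 with all 8 plates and no replicate block. In the Gcg line at 4 days, 2 passed by DESeq2, 3 with no filter and 2 with no replicate block. In the Tac1 line 0 or 1 passed as plates were left out. For untreated Gcg against Tac1 cells 0 passed by DESeq2 and 0 to 1 as plates were left out.

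The signs that turned were all of values that had not passed a test. Bambi at 4 days was at 0.03 with 5000 transcripts per cell, 0.25 without cells of another type, 0.05 without Kcnq1ot1-rich cells and -0.05 to 0.53 as plates were left out (with no value without the Gip plate), and at 24 h at 0.02 without cells of another type. In the Tac1 line Bambi was at -0.12 with no filter, -0.05 with no replicate block and -0.06 to 0.32 as plates were left out. Tgif1 at 24 h was at -0.06 with 5000 transcripts per cell, -0.13 without cells of another type and, in the Tac1 line, 0.32 with no replicate block. With plates left out, Tgif1 in the Gcg line at 4 days ran from -0.56 to 0.44 and its Gip minus Gcg difference from -0.85 to 0.15. Skil ran from -0.58 to 1.35 in the Gcg minus Tac1 and from -1.26 to 0.67 in the Gip minus Gcg difference. Between untreated lines it was at -0.12 by DESeq2 (Gcg against Tac1), and ran from -0.69 to 0.34 there and from -0.57 to 0.31 for Gip against Gcg. Smad7 was at 0.01 in the Gcg minus Tac1 difference by DESeq2. Shares of cells with Bambi differed by -2.26 points unthinned, -0.793 thinned to 1000 and -0.809 to 2.24 as plates were left out at 4 days, and by 1.39 unthinned and 1.03 thinned to 4000 at 24 h. For Tgif1 at 24 h they differed by 4.03 unthinned, 1.00 thinned to 1000, 1.63 thinned to 4000 and -1.55 to 1.42 as plates were left out.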
